A study of Rattus norvegicus with 6 samples.

Results

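Glypicans, syndecans and perlecan are core proteins that carry heparan sulfate, a long, sulfated sugar chain. The 9 genes described here were chosen by name: Gpc1, Gpc3, Gpc4 and Gpc6 for the glypicans, Sdc1, Sdc2, Sdc3 and Sdc4 for the syndecans, and the row named AABR07073181.1 for perlecan (Hspg2). They are 9 of the 33300 genes in the deposited table, and each name has 1 row. All 9 had a mean of at least 1 FPKM (fragments per kilobase, a level corrected for gene length and library depth) and so were among the 12733 genes tested. AABR07073181.1 is called Hspg2 below because the table describes it as the protein Hspg2 and RefSeq lists that name as a synonym of Hspg2.

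The sequenced RNA came from tendon stem/progenitor cells of rat, which reside in tendon and can form its matrix-producing cells. Control libraries (n = 3) came from cells kept for 7 days in F12 medium, and NAC libraries (n = 3) from cells kept for the same time in the same medium plus N-acetyl-L-cysteine (NAC) at 500 uM, a thiol antioxidant and cysteine donor. The labels of both groups also carry the terms mesenchymal stem cells and tenogenic differentiation, and give no strain, age or genetic change. Nothing in them states that replicates are independent cultures or animals; the p-values therefore reflect only the variation among these libraries, which may be technical.

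Heparan sulfate chains bind growth factors, morphogens and matrix proteins, and their core proteins act as co-receptors or as matrix anchors. Glypicans are held at the outer face of the plasma membrane by a lipid anchor and are known for tuning Wnt, Hedgehog, FGF and BMP signals. Syndecans span the membrane, cooperate with integrins in adhesion to fibronectin, and can be shed by proteases. Perlecan is secreted into basement membranes and into the pericellular matrix of connective tissue cells, including those of tendon and cartilage.

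Depth, recovered from the FPKM values, was 12487215 to 14941949 reads per library. Control 2 lay at -21.8 on the second principal component, against -4.23 to 10.3 for the other 5 libraries, so the counts below are also given without it. Of the tendon markers, the lineage factor Scx was at 12.5 ± 1.30 FPKM in Control and 11.6 ± 0.700 FPKM in NAC (SD, n = 3), Mkx, another such factor, at 5.28 ± 0.394 and 3.90 ± 1.07 FPKM, and Tnmd at 1.41 ± 0.369 and 2.55 ± 0.537 FPKM. The 7 tendon markers summed to 7862 to 7945 FPKM in Control and 11614 to 12391 FPKM in NAC; most of this sum and of its difference came from the matrix genes Col1a1 (2731 ± 124 and 5453 ± 253 FPKM) and Dcn (4489 ± 54.6 and 5620.4 ± 164 FPKM). The 4 mesenchymal progenitor markers summed to 1083 to 1193 and 1189 to 1290.0 FPKM. Of 5 pericyte and smooth muscle markers 3 reached a mean of 1 FPKM; their sum, mostly Acta2, was 374 to 459 FPKM in Control and 283 to 344 FPKM in NAC. The part of these marker differences in the results was not tested. Of 5 leukocyte markers only Cd68 reached 1 FPKM, with sums of 4.17 to 7.20 FPKM in Control and 3.77 to 5.18 FPKM in NAC and Ptprc and Cd3e at 0. None of the markers of endothelial, Schwann, skeletal muscle, epithelial and fat cells reached a mean of 1 FPKM, each of these lists summed to at most 0.977 FPKM in a library, and Cdh5, Emcn, Sox10, Pax7 and Krt14 were at 0 in all 6. In such bulk samples, fewer cells of a type and less RNA per cell cannot be told apart.

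The promoters of the 4 genes that were higher with NAC are shown first, so that the start regions of genes that moved together can be compared. Windows of 300 bases, from 250 before to 50 after the annotated start, were taken from RefSeq (build GRCr8) and matched by symbol for 6 of the 9 genes. They are written 5′ to 3′ on the gene's own strand, and capitals mark the GC box GGGCGG or its reverse complement CCGCCC, the letters that Sp-family factors bind.
Gpc3 (chrX:137157549-137157848, minus strand): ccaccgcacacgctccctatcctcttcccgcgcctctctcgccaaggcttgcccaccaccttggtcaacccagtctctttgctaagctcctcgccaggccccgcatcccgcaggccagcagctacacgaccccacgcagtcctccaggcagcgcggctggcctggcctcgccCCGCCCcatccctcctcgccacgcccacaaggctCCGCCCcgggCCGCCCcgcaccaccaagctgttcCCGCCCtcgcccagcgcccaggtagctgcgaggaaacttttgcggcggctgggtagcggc
Gpc4 (chrX:136676008-136676307, minus strand): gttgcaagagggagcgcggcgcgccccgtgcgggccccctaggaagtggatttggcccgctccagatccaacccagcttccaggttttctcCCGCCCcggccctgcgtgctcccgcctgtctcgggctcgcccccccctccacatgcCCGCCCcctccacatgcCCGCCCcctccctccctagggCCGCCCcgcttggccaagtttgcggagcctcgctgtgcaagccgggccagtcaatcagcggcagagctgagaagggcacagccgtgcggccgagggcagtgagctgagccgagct
Hspg2 (chr5:154960596-154960895, plus strand): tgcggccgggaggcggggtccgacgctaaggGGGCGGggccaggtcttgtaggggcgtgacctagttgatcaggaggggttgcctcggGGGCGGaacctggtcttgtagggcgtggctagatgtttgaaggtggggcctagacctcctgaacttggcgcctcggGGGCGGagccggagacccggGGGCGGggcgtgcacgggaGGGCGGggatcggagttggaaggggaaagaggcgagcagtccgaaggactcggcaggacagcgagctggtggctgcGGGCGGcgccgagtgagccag
Sdc1 (chr6:37281791-37282090, plus strand): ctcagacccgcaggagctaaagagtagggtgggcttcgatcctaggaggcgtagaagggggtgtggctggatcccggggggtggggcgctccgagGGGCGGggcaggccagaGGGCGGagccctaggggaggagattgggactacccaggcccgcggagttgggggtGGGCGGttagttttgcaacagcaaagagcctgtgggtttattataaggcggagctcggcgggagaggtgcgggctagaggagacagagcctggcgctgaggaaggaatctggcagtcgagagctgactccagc

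All 4 windows are rich in G and C, at 71.0% for Gpc3, 71.3% for Gpc4, 70.0% for Hspg2 and 64.7% for Sdc1, against a median of 51.7% over 33469 windows of the same length. They hold 27, 25, 28 and 17 CpG dinucleotides in that order, against a median of 7. Gpc3 and Gpc4 each hold 4 GC boxes, all with the letters GGGCGG on the opposite strand, whereas the 6 of Hspg2 and the 3 of Sdc1 all lie on the gene's strand. The boxes of Gpc3 begin 78, 44, 34 and 10 bases before the start, and those of Gpc4 begin 159, 103, 86 and 65 bases before it. A GC box on either strand occurs in 33.1% of all windows. The windows of Sdc3 and Sdc4, which were not called, hold 4 and 5 as well. These windows are also rich in G and C, at 79.3% and 68.7%, with 57 and 26 CpG dinucleotides. The TATA box TATAAA (in 14.2% of all windows), the AP-1 site TGANTCA (7.33%), the antioxidant response element core TGANNNNGC (40.5%) and the TEAD site GGAATG (14.2%), each searched on both strands, had no match in any of the 6 windows. CCAAT (37.5% of all windows) had 1 match, in Sdc1 on the opposite strand. These matches describe letters only, and the motifs do not overlap in the windows printed.

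The comparison of NAC with Control asks which transcripts differ after 7 days of NAC, here among the heparan sulfate core proteins. Gpc3 rose 2.45-fold and perlecan 2.16-fold, Gpc4 rose 1.29-fold and Sdc1 rose 1.18-fold. The other 5 genes, Gpc1, Gpc6, Sdc2, Sdc3 and Sdc4, did not pass the test. The test was limma on log2(FPKM + 1), two-sided, with Benjamini-Hochberg adjustment over all 12733 genes and a threshold of 0.05. Among all tested genes 6.08% were called higher and 2.72% lower, 8.8% in all, against 4 and 0 of these 9. With limma and voom on the recovered reads, 4 of the 9 were also higher and 0 lower, against 1035 and 529 of all 12733. Besides the 4 called genes, Sdc2 reached an unadjusted p under 0.05 (limma). The share of all tested genes under that threshold is not given here, so this has no background. The values of NAC lay wholly above those of Control for the same 4 genes (16.7% of all tested genes) and wholly below for Sdc2 (15.9%), so that 5 of the 9 did not overlap, as did 32.6% of all tested genes. Without Control 2 the 4 calls were the same, beside 859 higher and 347 lower among all tested genes.

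**Figure D1:**
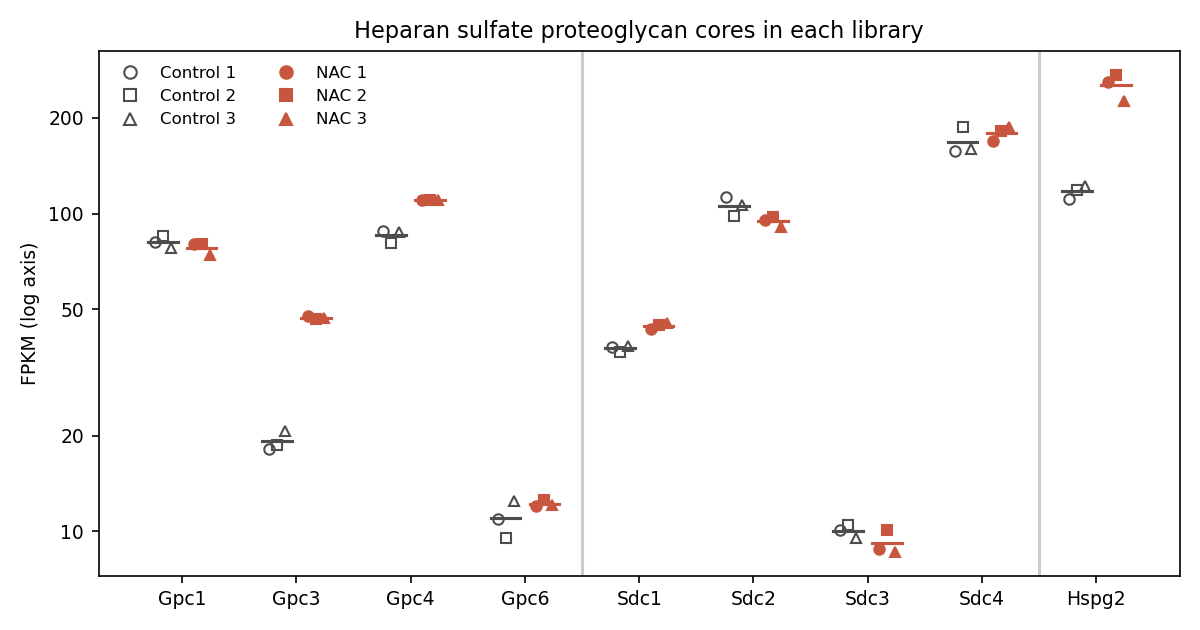
FPKM (log axis) of the 9 genes along the horizontal axis, with open symbols for the Control libraries, filled symbols for the NAC libraries and short lines for group means. Gpc3 and Hspg2 show a wide gap between the groups, and Gpc4 and Sdc1 a narrow one, while the points of Gpc1, Gpc6, Sdc3 and Sdc4 overlap.

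Part of this picture depends on how libraries are scaled. The totals by which the authors divided, inferred from the steps between FPKM values, were 1.02 to 1.04 times the recovered reads in Control and 0.909 to 0.925 times in NAC. When each library was scaled by its own recovered reads, the median change over the 12733 genes moved from -0.01 to -0.16 (log2), and 467 genes were called higher and 3722 lower in place of 774 and 346. On that scale Gpc3, Gpc4 and Hspg2 were called higher, and Gpc1 (-0.23, adjusted p = 0.0118), Sdc2 (-0.33, adjusted p = 0.0113) and Sdc3 (-0.28, adjusted p = 0.0251; limma) were called lower. Relative to the median of all genes on that scale, the changes were 1.24 for Gpc3, 1.09 for Hspg2, 0.35 for Gpc4, 0.22 for Sdc1, 0.15 for Gpc6, 0.08 for Sdc4, -0.07 for Gpc1, -0.12 for Sdc3 and -0.17 for Sdc2.

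Among the glypicans, Gpc3 had the largest change. It is known as a regulator of Hedgehog and Wnt signalling and of body growth, and its loss in humans causes an overgrowth syndrome. Gpc3 (ENSRNOG00000060179; chromosome X, 139579268 to 139916883, minus strand) was at 18.1, 18.7 and 20.8 FPKM in Control 1 to 3 and at 47.8, 46.7 and 46.8 FPKM in NAC 1 to 3. Every NAC library was more than 2 times as high as any Control library, and the spread within NAC was small (47.1 ± 0.581 FPKM, against 19.2 ± 1.39 FPKM in Control; SD, n = 3). The log2 fold change on the log2(FPKM + 1) scale was 1.254 (SE 0.0562, 95% interval 1.12 to 1.39, limma adjusted p = 2.79e-04). On this scale, which understates the changes of low genes, 30 tested genes, 0.236%, had a higher log2 fold change. These values rest on 440 to 1199 reads per library, and counting error alone gives a coefficient of variation of 4.77% at the lowest. The gene was called under each of the 18 alternatives, with changes of 1.08 to 1.31.

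Gpc4, a glypican known for modulating FGF and Wnt signals, rose as well. Gpc4 (ENSRNOG00000002413; chromosome X, 139354155 to 139464798, minus strand) was at 87.9, 80.8 and 87.8 FPKM in Control and at 110.8, 110.6 and 110.2 FPKM in NAC. The 3 NAC libraries were almost equal, and Control 2 was the lowest of all 6. The means were 85.5 ± 4.04 and 110.5 ± 0.317 FPKM (SD, n = 3), and the change was 0.37 (log2) (SE 0.0427, limma adjusted p = 0.00478). It was called under all 18 alternatives, at 0.19 to 0.39.

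Gpc1 and Gpc6 did not pass the test. Gpc1, the glypican best known for FGF signalling (ENSRNOG00000049437; chromosome 9, 99998275 to 100026818, plus strand), was at 81.5, 84.8 and 77.9 FPKM in Control and at 80.4, 80.1 and 74.1 FPKM in NAC. The groups overlapped, and the log2 fold change was -0.06 (95% interval -0.18 to 0.06, limma adjusted p = 0.515). Gpc6, required for growth of long bones (ENSRNOG00000046660; chromosome 15, 102164751 to 103170847, plus strand), was low, at 10.9, 9.53 and 12.5 FPKM in Control and at 12.0, 12.5 and 12.1 FPKM in NAC. Its groups overlapped too, with Control more scattered than NAC. The log2 fold change was 0.15 (95% interval -0.07 to 0.37, limma adjusted p = 0.352), from 279 to 422 reads per library; without Control 2 it was 0.06 and without Control 3 it was 0.24, neither called. Gpc2, another glypican measured outside the 9, was at 2.78, 2.65 and 2.79 FPKM in Control and at 2.68, 2.56 and 3.07 FPKM in NAC (limma adjusted p = 0.960).

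The genes Gpc4 and Gpc3 are neighbours on the same strand of the X chromosome, 114.469 kb apart, with 4 other annotated genes between them. Within 1000 kb on either side of the pair the table holds 27 genes, of which 4 were tested. Besides the glypicans these were Hs6st2, a heparan sulfate 6-O-sulfotransferase, and Ftl1l1, a ferritin light chain-like gene. Hs6st2 was at 31.2, 31.8 and 32.0 FPKM in Control and at 34.5, 31.7 and 35.9 FPKM in NAC (log2 fold change 0.10, limma adjusted p = 0.280). Ftl1l1, which lies between the glypicans, was at 5.26, 4.70 and 3.33 FPKM in Control and at 3.87, 5.87 and 5.46 FPKM in NAC (0.16, limma adjusted p = 0.616). The stretch was drawn around the 2 called glypicans, and neither Hs6st2 nor Ftl1l1 was called. Whether the changes of the glypicans differ from those of their neighbours was not tested.

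Among the syndecans 1 of 4 was called. This was Sdc1, which binds matrix proteins and growth factors and is a well-known target of shedding. Sdc1 (ENSRNOG00000059947; chromosome 6, 33885495 to 33908016, plus strand) was at 38.1, 36.7 and 38.5 FPKM in Control and at 43.4, 44.8 and 45.1 FPKM in NAC. All NAC libraries were above all Control libraries, by a small margin. The means were 37.8 ± 0.914 and 44.4 ± 0.919 FPKM (SD, n = 3), a difference of 0.23 on the log2(FPKM + 1) scale (SE 0.0388, limma adjusted p = 0.0184). This call was lost without any 1 library other than Control 2 (limma adjusted p = 0.0536 to 0.0780) and when libraries were scaled by their own reads (0.06, limma adjusted p = 0.333).

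Sdc2, the syndecan typical of fibroblasts and other mesenchymal cells (ENSRNOG00000004936; chromosome 7, 71572941 to 71686044, plus strand), was at 113, 98.3 and 106.7 FPKM in Control and at 95.8, 97.9 and 90.5 FPKM in NAC. NAC lay below Control without overlap, but Control 2 was within 1 FPKM of NAC 2. The log2 fold change was -0.16 (SE 0.0595, 95% interval -0.30 to -0.02) and did not pass the adjusted threshold (unadjusted p = 0.0322, limma adjusted p = 0.149).

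Sdc3, best known from neurons and muscle precursors (ENSRNOG00000011927; chromosome 5, 148923098 to 148956404, plus strand), was at 10.1, 10.4 and 9.51 FPKM in Control and at 8.79, 10.1 and 8.62 FPKM in NAC. The groups overlapped through NAC 2, and the log2 fold change was -0.12 (95% interval -0.29 to 0.06, limma adjusted p = 0.357). Sdc4, a focal adhesion component that cooperates with integrins on fibronectin (ENSRNOG00000014297; chromosome 3, 160872503 to 160891190, minus strand), was at 158, 187 and 159.8 FPKM in Control and at 169, 182 and 187 FPKM in NAC. Control 2 was as high as the highest NAC library, so the groups overlapped. Its log2 fold change was 0.09 (95% interval -0.08 to 0.27, limma adjusted p = 0.474), and it was 0.17 without Control 2 (limma adjusted p = 0.0941) and 0.05 without Control 1. The value turned to -0.08 with scaling by recovered reads and to -0.03 with quantile normalization.

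Perlecan had the second-largest change of the 9. Hspg2 (ENSRNOG00000021437; chromosome 5, 155812105 to 155885829, plus strand) was at 111, 119 and 122 FPKM in Control and at 260.03, 274 and 227 FPKM in NAC. The lowest NAC library, NAC 3, was still far above the highest Control library. The means were 117 ± 5.53 and 254 ± 24.1 FPKM (SD, n = 3). The log2 fold change was 1.10 (SE 0.0746, 95% interval 0.92 to 1.28, limma adjusted p = 6.36e-04). On the log2(FPKM + 1) scale, which understates the changes of low genes, 50 tested genes, 0.393%, lay above it. The change of Hspg2 rests on 11472 to 28191 reads per library and was called under all 18 alternatives, at 0.93 to 1.18. The table's gene model spans 73725 bases, against 101154 in RefSeq, so the level of perlecan relative to other genes carries the error of a model that may be incomplete; its fold change does not use the length.

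**Figure D2:**
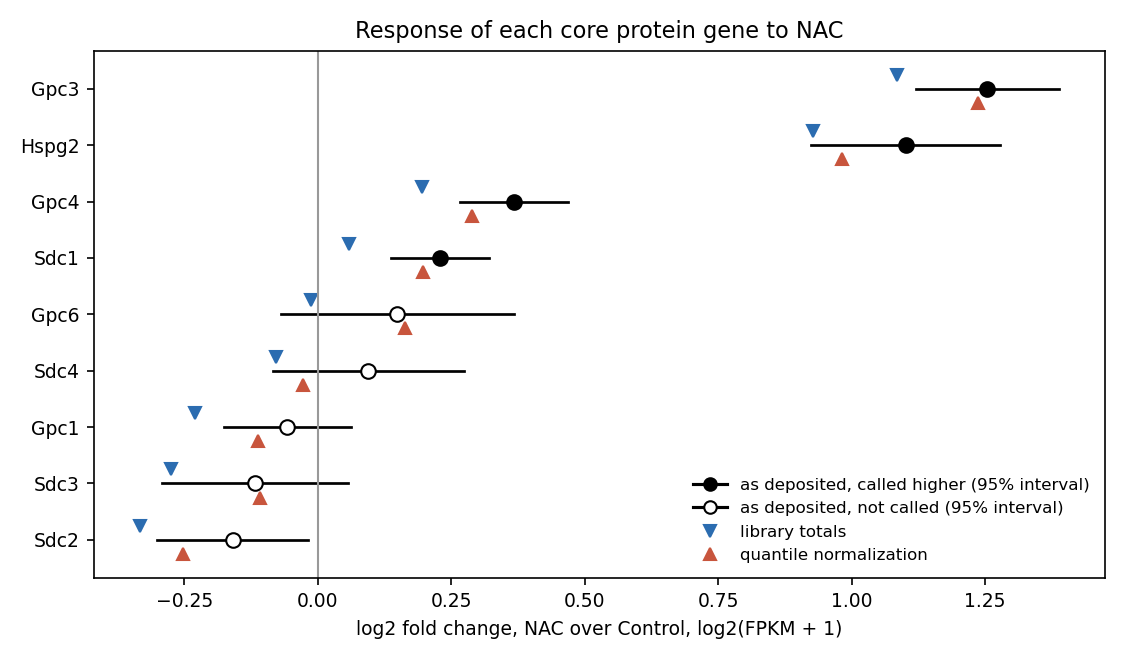
Log2 fold change of NAC over Control on the log2(FPKM + 1) scale for the 9 genes; circles with 95% intervals are limma's values as deposited (filled where called), and triangles are the values after scaling by recovered reads (library totals, pointing down) or quantile normalization (pointing up). Gpc3 (1.254) and Hspg2 (1.10) lie far from 0, Gpc4 (0.37) and Sdc1 (0.23) nearer, and the intervals of Gpc1, Gpc6, Sdc3 and Sdc4 include 0.

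Because FPKM is per length, levels can be compared between the genes. The level of perlecan, and so its place in the orders below, rests on a gene model that may be incomplete. In Control the order was Sdc4 at 168 ± 16.4 FPKM, Hspg2, Sdc2, Gpc4, Gpc1, Sdc1, Gpc3, Gpc6 at 11.0 ± 1.49 FPKM and Sdc3 at 10.03 ± 0.473 FPKM. Libraries overlapped between Hspg2 and Sdc2, between Gpc4 and Gpc1, and between Gpc6 and Sdc3, so those neighbours were not apart beyond their spread. In NAC the order was Hspg2, Sdc4, Gpc4, Sdc2, Gpc1, Gpc3, Sdc1, Gpc6 and Sdc3, and no neighbours overlapped. Perlecan thus stood above Sdc4 in NAC and below it in Control, Gpc4 stood above Sdc2, and Gpc3 above Sdc1.

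Shares within a family are free of the scaling between libraries, while sums are not. The glypicans summed to 198, 194 and 199 FPKM in Control and to 251, 249.9 and 243 FPKM in NAC, a ratio of 1.26, or 1.11 with recovered-read scaling. Gpc3 made up 9.13%, 9.65% and 10.4% of that sum in Control and 19.0%, 18.7% and 19.3% in NAC, while the share of Gpc1 went from 41.3 ± 2.29% to 31.5 ± 0.904% (SD, n = 3). The deposited level of Gpc1 overlapped between the groups (means of 81.4 and 78.2 FPKM), so its lower share is not by itself a lower level. The share of Gpc4 was 43.4 ± 1.44% and 44.6 ± 0.645%, with overlap. NAC and Control did not overlap for the Gpc3 and Gpc1 shares, but the exact two-sided permutation test cannot go below p = 0.10 with 3 against 3, which is the value of both (Benjamini-Hochberg 0.15 over 30 such quantities).

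The syndecan sums of the groups overlapped, at 322 ± 9.45 FPKM in Control and 327 ± 9.39 FPKM in NAC (exact permutation p = 0.60, Benjamini-Hochberg 0.621). With recovered-read scaling they did not overlap, at 333 ± 5.80 in Control and 299.8 ± 9.41 in NAC. Sdc4 was the main syndecan in both groups, with 52.2 ± 3.61% and 54.7 ± 1.62% of the sum. The share of Sdc1 was 11.7 ± 0.620% and 13.6 ± 0.156%, with NAC above, and that of Sdc3 3.11 ± 0.0769% and 2.80 ± 0.211%, with NAC below (exact permutation p = 0.10 for each). Sdc2 had 32.99 ± 3.06% and 28.9 ± 1.49%, with overlap.

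Over all 9 genes the sum was 636 ± 8.39 FPKM in Control and 829 ± 28.4 FPKM in NAC, a ratio of 1.30, or 1.15 with recovered-read scaling. Perlecan held 17.7%, 18.4% and 19.2% of it in Control and 31.4%, 31.9% and 28.3% in NAC, and the syndecans together 50.6 ± 1.03% and 39.5 ± 1.61% (exact permutation p = 0.10 for each, the smallest possible). The syndecan sum itself overlapped between the groups as deposited and was lower in NAC with recovered-read scaling. The glypicans together had 31.0 ± 0.821% and 29.9 ± 0.698%, with overlap (exact permutation p = 0.30). All shares of this sum depend on the length of perlecan's gene model, which may be incomplete. Pairwise, the log2 ratio of Gpc3 over Gpc4 was -2.16 ± 0.107 in Control and -1.23 ± 0.0151 in NAC, that of Sdc1 over Sdc2 -1.49 ± 0.0757 and -1.09 ± 0.0761, and that of Hspg2 over Sdc4 -0.51 ± 0.133 and 0.50 ± 0.191. In these 3 ratios no NAC library overlapped a Control library, nor in 3 further ratios (Gpc3 over Gpc1, Gpc4 over Gpc1 and Gpc3 over Gpc6). The groups did overlap for Sdc4 over Sdc2, at 0.66 ± 0.235 and 0.92 ± 0.118 (exact permutation p = 0.30), and for Sdc1 over Sdc4, at -2.15 ± 0.172 and -2.01 ± 0.0465 (exact permutation p = 0.20).

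**Figure D3:**
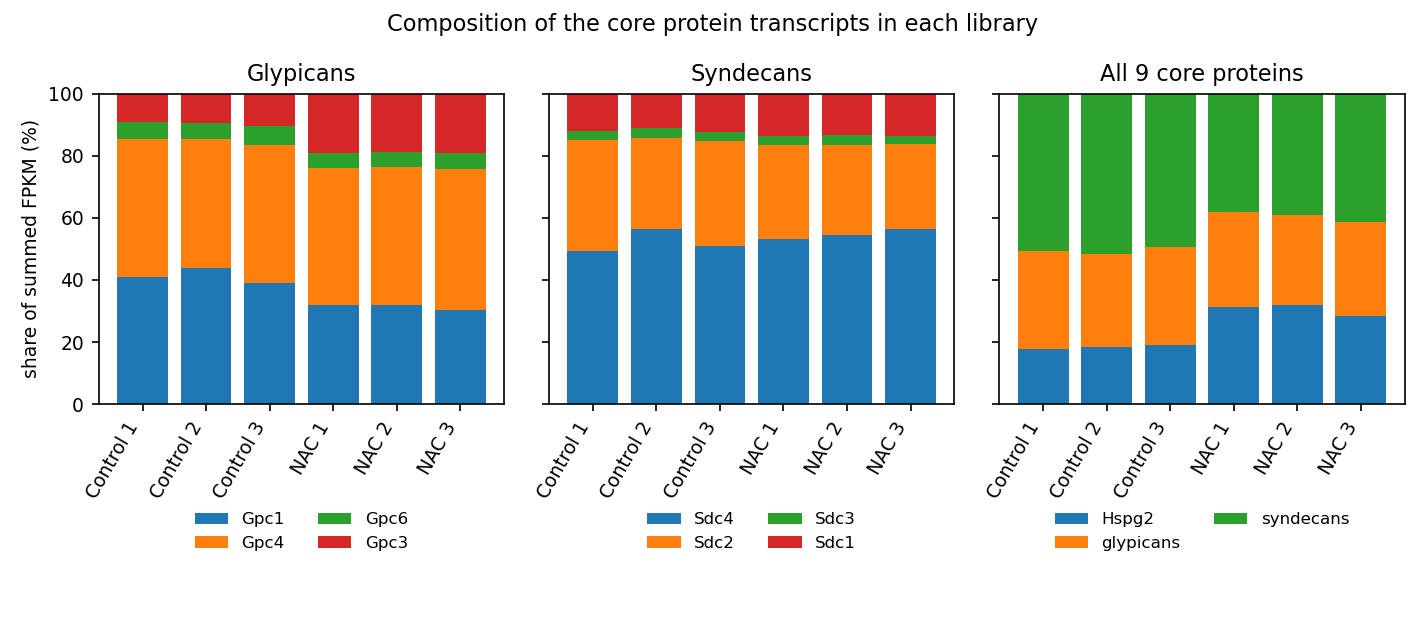
Stacked bars per library give the share (percent of summed FPKM) of each glypican among glypicans, of each syndecan among syndecans, and of Hspg2, glypicans and syndecans among all 9 genes. Gpc3 grows from 9.13% to 10.4% of the glypicans in Control to 18.7% to 19.3% in NAC, the share of Hspg2 is 17.7% to 19.2% in the Control libraries and 28.3% to 31.9% in the NAC libraries, and the syndecans take a smaller share in NAC.

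Genes that build heparan sulfate were called at about the share of all genes. Of 35 genes for the linkage region, polymerisation, sulfation and precursor supply, 34 were in the table and 24 were tested; 1 was called higher and 0 lower by limma, against 6.08% and 2.72% of all tested genes. The median log2 fold change of the 24 was 0.09, beside -0.01 for all tested genes, with a range of -0.16 to 0.28. The called gene was Ext2, a subunit of the polymerase, at 100.3 ± 2.57 FPKM in Control and 122 ± 4.86 FPKM in NAC (0.28, SE 0.0423, limma adjusted p = 0.0122). Its partner Ext1 was at 27.2 and 28.8 FPKM (limma adjusted p = 0.306). The Ext2 call was lost without Control 3, NAC 1 or NAC 2 and with scaling by recovered reads (0.11) or quantile normalization (0.19). With scaling by recovered reads 0 genes of the list were higher and 3 lower, namely Ugdh, B3gat3 and Ndst1, which were chosen for mention after their values were seen. Without Control 2 it was 2 higher, Extl3 being the other. Of all 12733 tested genes, 467 were higher and 3722 lower with recovered-read scaling, and 859 and 347 without Control 2.

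Of 18 genes for enzymes that edit chains or cleave core proteins, 13 were tested. By limma 5 were higher, 1 was lower and 7 were not called, beside 6.08% higher and 2.72% lower among all tested genes, and the median was 0.13. Sulf1, which removes 6-O-sulfates outside the cell, fell from 241 ± 8.15 to 201 ± 8.35 FPKM (-0.26, limma adjusted p = 0.0197). Ctsl, a cysteine protease of lysosomes, rose from 397 ± 11.3 to 498 ± 9.05 FPKM (0.33, limma adjusted p = 0.00391). The gelatinases Mmp9 (24.1 ± 5.99 to 46.4 ± 6.81 FPKM; 0.93, limma adjusted p = 0.0333) and Mmp2 (2529.5 ± 92.8 to 2925 ± 38.8 FPKM; 0.21, limma adjusted p = 0.0286), both able to shed syndecans, rose too. Adam17 (0.17) and Bmp1 (0.23), the other called genes, both chosen for mention after their values were seen, lost their calls when any 1 library was left out. The call of Sulf1 was lost without Control 3, NAC 1 or NAC 3, that of Mmp9 without Control 3 or any NAC library, and that of Mmp2 without any library other than Control 2. Mmp2 was not called with recovered-read scaling either (0.04), and Ctsl not with quantile normalization (0.11). Without a variance trend the calls of Sulf1, Mmp9, Mmp2, Adam17 and Bmp1 were lost too. Without a filter those of Mmp9, Mmp2, Adam17 and Bmp1 were lost. The replicate block lost those of Mmp2, Adam17 and Bmp1, and robust estimation that of Mmp9. With recovered-read scaling 2 of the 13 were higher and 4 lower, with quantile normalization 1 and 2, and without Control 2 they were 4 and 1. For all 12733 tested genes these counts were 467 and 3722, 567 and 408, and 859 and 347, in the same order.

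Of the 8 lysosomal enzymes that break heparan sulfate down, all 8 were tested, 2 were higher and 0 lower by limma (6.08% and 2.72% of all tested genes), and the median was 0.17. Naglu, the alpha-N-acetylglucosaminidase, rose from 47.0 ± 2.17 to 64.4 ± 2.37 FPKM (0.44, limma adjusted p = 0.00391). Ids, the iduronate 2-sulfatase, rose from 56.8 ± 2.61 to 69.8 ± 3.94 FPKM (0.29, limma adjusted p = 0.0268), a call lost without Control 1, Control 3, NAC 1 or NAC 2 and with recovered-read scaling (0.12) or quantile normalization (0.24). The Ids call was also lost without a variance trend and with the replicate block. Recovered-read scaling gave 1 higher and 1 lower in this list, quantile normalization gave 1 and 0, and leaving out Control 2 gave 2 and 0. All 12733 tested genes gave 467 and 3722, 567 and 408, and 859 and 347, in the same order.

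Of 21 glypican partners (ligands, receptors and anchor enzymes) 15 were tested, 2 were higher and 0 lower by limma (6.08% and 2.72% of all tested genes), with a median of 0.08. Lrp1, an endocytic receptor, rose from 520.1 ± 20.5 to 708 ± 29.8 FPKM (0.44, limma adjusted p = 0.00365; lost with quantile normalization, at 0.23). The ligand Wnt5a rose from 20.2 ± 1.80 to 26.8 ± 1.15 FPKM (0.39, limma adjusted p = 0.0232). The Wnt5a call was lost without NAC 1, NAC 2 or NAC 3 and with recovered-read scaling (0.22). With recovered-read scaling 1 was higher and 4 lower, with quantile normalization 1 and 1, and without Control 2 they were 2 and 1. Counts over all 12733 tested genes were 467 and 3722, 567 and 408, and 859 and 347, in the same order.

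Of 18 syndecan partners 16 were tested, with 3 higher and 1 lower, beside 6.08% and 2.72% of all tested genes, and a median of 0.09. The higher ones were integrin subunits: Itgav (69.3 ± 3.46 to 90.1 ± 1.66 FPKM, limma adjusted p = 0.00598), Itgb1 (296 ± 5.36 to 345 ± 4.11 FPKM, adjusted p = 0.0112) and Itga5 (54.2 ± 4.57 to 67.2 ± 1.98 FPKM, adjusted p = 0.0328). Itgav was called under every alternative, whereas Itgb1 and Itga5 lost their calls with recovered-read scaling (0.05 and 0.14), Itgb1 also with quantile normalization (0.04) and without NAC 1 or NAC 2, and Itga5 without any library other than Control 2. Pdcd6ip, the Alix protein of the exosome route, fell from 42.9 ± 0.631 to 38.0 ± 1.00 FPKM (-0.17, limma adjusted p = 0.0431), a call lost when any 1 library was left out. Without a variance trend or with the replicate block the calls of Itga5 and Pdcd6ip were lost too, and that of Itga5 also without a filter. With recovered-read scaling 1 was higher and 6 lower, with quantile normalization 2 and 1, and without Control 2 they were 3 and 0. Among all 12733 tested genes it was 467 and 3722, 567 and 408, and 859 and 347, in the same order.

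Other proteoglycans listed here as able to carry heparan sulfate include several of basement membranes. Whether they carry it in these cells was not measured. Of 12 listed genes 11 were in the table and 8 were tested. By limma 4 were higher and 0 lower, beside 6.08% and 2.72% of all tested genes. The median was 0.34, against -0.01 for all tested genes. Col18a1, whose collagen is the source of endostatin, rose from 40.2 ± 3.59 to 81.5 ± 7.19 FPKM (1.00, limma adjusted p = 0.00168), under every alternative. Col15a1, a related collagen, rose from 9.62 ± 2.84 to 21.5 ± 0.785 FPKM (1.12, limma adjusted p = 0.0124). Agrin (Agrn) rose from 7.42 ± 0.375 to 11.0 ± 0.904 FPKM (0.51, limma adjusted p = 0.0112), and serglycin (Srgn), an intracellular proteoglycan of secretory granules, from 10.2 ± 0.957 to 14.3 ± 0.345 FPKM (0.45, limma adjusted p = 0.0144). The calls of Col15a1 and Srgn were lost without NAC 1 or NAC 2, that of Srgn also without Control 1, and that of Agrn without NAC 2. Recovered-read scaling gave 4 higher and 1 lower, and leaving out Control 2 gave 4 and 0. All 12733 tested genes gave 467 and 3722, and 859 and 347, in the same order.

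Perlecan partners (matrix proteins, cell surface receptors and growth factors) had the highest count of calls among the 7 lists. Of 21 genes 20 were tested, 13 were higher and 1 lower, beside 6.08% and 2.72% of all tested genes, with a median of 0.56. This list, like the others, was chosen with earlier results of these data known. Fibronectin (Fn1) rose from 1719.9 ± 73.1 to 3276 ± 36.6 FPKM (0.93, limma adjusted p = 2.79e-04). The basement membrane collagens Col4a1 (294 ± 12.6 to 575 ± 32.4 FPKM) and Col4a2 (303 ± 14.0 to 589 ± 27.0 FPKM) both rose by 0.96 on the log2 scale. Nidogen (Nid1), which bridges laminin and collagen IV, rose from 228 ± 5.66 to 350.4 ± 9.56 FPKM (0.62, limma adjusted p = 5.2e-04). All 6 laminin chains on the list, Lama2, Lama4, Lama5, Lamb1, Lamb2 and Lamc1, were also called higher, from 0.31 for Lamb1 to 1.17 for Lama5. The lower gene was the growth factor Fgf7, from 422 ± 8.10 to 355 ± 4.58 FPKM (-0.25, limma adjusted p = 0.00792), whose call was lost without NAC 2; the laminins and Fgf7 were chosen for mention after their values were seen. With recovered-read scaling or quantile normalization 12 were higher and 2 lower, and without Control 2 they were 14 and 1. For all 12733 tested genes these 3 alternatives gave 467 and 3722, 567 and 408, and 859 and 347, in the same order. Whether the lists differ from one another was not tested.

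**Figure D4:**
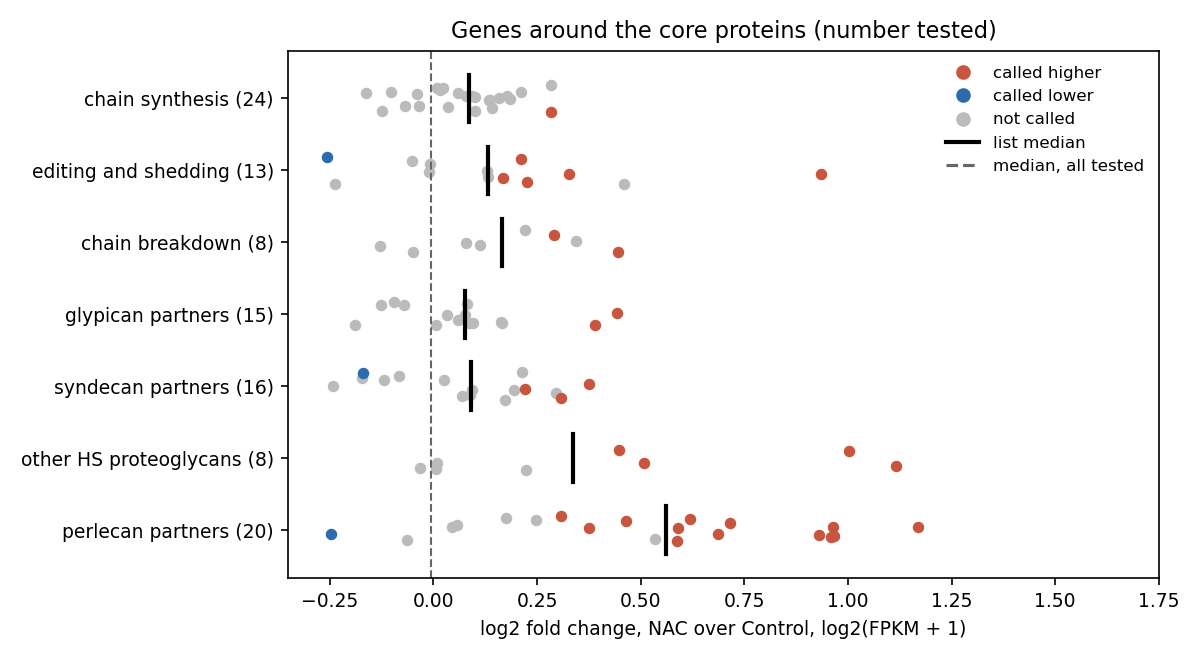
Log2 fold change of each tested gene in the 7 lists, with the number tested in parentheses, called genes in colour, list medians as thick lines and the median of all tested genes as a dashed line. Perlecan partners (median 0.56) and other heparan sulfate proteoglycans (0.34) lie highest, and the genes that build the chain stay between -0.16 and 0.28.

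The genes whose pattern over the 6 libraries was most like that of each called gene were found by the root mean square difference between centred log2(FPKM + 1) values. For Gpc3 these were Col6a3, a collagen VI chain (difference 0.0355), the complement component C3 (0.0663) and the amine oxidase Aoc1 (0.0795). For Hspg2 they were C3 (0.0819), Col4a1 (0.0948) and Plau, urokinase (0.0955). For Gpc4 they were Gm2a (0.0192), Ttyh3 (0.0316) and Melk (0.0334; limma adjusted p = 0.0698, not called), and for Sdc1 Ncstn (0.0137), Fads3 (0.0177) and Lox, the collagen cross-linking enzyme (0.0193). Col6a3 went from 17.9 ± 0.810 to 45.4 ± 1.34 FPKM and C3 from 714 ± 25.8 to 1639 ± 76.2 FPKM. A change near that of the matched core protein follows from how these genes were chosen.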

How the data were processed

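RNA was purified with an RNeasy kit and made into libraries with a SMARTer mRNA kit, per the labels' protocols; no aligner, counter or strand setting is given in the sources used here. The submitters' processing notes list GRCm38 and mm10, which are mouse builds, while the deposited table carries rat Ensembl identifiers and coordinates. Its coordinates are printed as deposited, without a build, since none is named for rat in the labels; overlapping or antisense genes may share reads. The authors deposited 1 FPKM value per gene and library. The columns N1 to N3 were taken as Control 1 to 3 because the other 3 carry the name NAC. Dividing each FPKM by the value of 1 read, which follows from gene length and a total inferred for each library from its FPKM steps, gave whole reads for 100% of values (tolerance 0.01 reads), and these served for depth and 2 alternatives.

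limma 3.58.1 (R 4.3.3) was fitted to log2(FPKM + 1) of genes with a mean of at least 1 FPKM, with a variance trend, two-sided, Benjamini-Hochberg adjusted, called under 0.05. Fold changes on this scale understate those of low genes. Shares and sums were compared with exact permutation tests over samples (scipy 1.17.1). Named genes are all 9 core proteins, up to 4 called genes per list by lowest adjusted p (the 2 most abundant where none was called), and 3 genes of most similar pattern per called core protein. The members and the 7 lists were chosen with earlier results of these data known. Of 133 list entries 1 was matched by an older name and 2 (Gpc5, Hs3st4) are not analysed here. Alternatives were pseudocount 0.1, no filter or a minimum of 5 FPKM, other scalings, variance models, voom, a replicate block, a threshold of 0.01, protein-coding genes, and each library left out; for lists other than chain synthesis, and for sums, the scalings and the omission of Control 2 were chosen after seeing the data. Replicates differed by more than counting noise (chi-square per degree of freedom 3.71 to 9.72). Tested on simulated NAC and Control data over 12583 genes, the fit found 6 of 49 at a true fold of 1.25, 26 of 50 at 1.5, 38 of 48 at 2 and 44 of 48 at 4, and called 7 of 12388 without a change. Far fewer genes were changed there than were called in the real data (1120 of 12733), so these shares need not hold for the real fit.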

Additional observations from a re-analysis of the deposited data

How the results depend on the processing

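Gpc3, Gpc4 and Hspg2 were called higher under all 18 alternatives. The number of core proteins called higher was 4, and 3 with recovered-read scaling, with the replicate block, at an adjusted p under 0.01 and without any 1 library other than Control 2 (leave-one-out range 3 to 4); the number called lower was 0, and 3 with recovered-read scaling (leave-one-out 0 to 0). Genes of chain synthesis called higher numbered 1, but 2 with a minimum of 5 FPKM, median-of-ratios scaling, robust estimation, voom, protein-coding genes or the replicate block, and 0 with recovered-read scaling, quantile normalization or a threshold of 0.01 (leave-one-out 0 to 2); those called lower numbered 0, but 3 with recovered-read scaling and 1 with quantile normalization (leave-one-out 0 to 0). The Gpc3 share difference of 9.25 percentage points was 6.37 in recovered reads (leave-one-out 8.95 to 9.60), and the perlecan share difference of 12.1 was 16.9 (11.4 to 13.2), since reads also count gene length. Signs turned for Gpc6 (-0.012), Sdc4 (-0.079) and Adam17 (-0.0039) with recovered-read scaling, and for Sdc4 (-0.029) and Mmp2 (-0.038) with quantile normalization, and the syndecan sum ratio fell to 0.901 with recovered-read scaling; the cause was not tested.

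After each gene's group mean was subtracted, same-numbered Control and NAC libraries correlated at 0.0627, 0.0589 and -0.0502. Differently numbered pairs gave -0.113 to 0.0650. With 3 libraries per group, such values cannot decide whether a number marks a shared culture, and the labels do not say. With the replicate block Sdc1 had a limma adjusted p of 0.0593, and the paired share differences are 9.25 and 12.1 points by construction (exact sign-flip permutation p = 0.25, the smallest possible). Over all genes, 774 higher calls became 467 with recovered-read scaling, 466 with the block, 238 at 0.01 and 264 to 859 with 1 library left out; 346 lower calls became 3722, 110, 32 and 51 to 347, and 207 without filter, 206 without trend and 529 with voom. On simulated data, with far fewer changed genes than were called in the real data, most changes of the smallest size were missed.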
